A study of Mus musculus with 15 samples.

Results

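The shortest regions with decreased H2A.X in mouse embryonic stem cells were examined, namely all deposited domains of at most 13 kb (start to end) in 8 lists of decreased domains. There were 323 of them among the 22875 domains of these 8 lists, which is 1.41%. All 10 lists of the series together hold 23031 domains. The choice used only the length and the 8 lists. All domains are built from bins of 1.3 kb, so a short domain spans 1 to 10 bins, and 22552 domains of the same lists are longer. Coordinates are those of mm9, 1-based, and the lists hold autosomes only.

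The series held 15 native ChIP-seq samples of male and female embryonic stem cell lines from 129S6 X C57B6 blastocysts (which line had which sex is not given): 11 H2A.X immunoprecipitates, 3 inputs and 1 IgG control. The 8 lists come from 3 samples in 2i/LIF (lines 34, 35 and 37), 2 samples kept first in 2i/LIF and afterwards in Serum/LIF (lines 34 and 37, called after the move below) and 3 samples in Serum/LIF whose titles carry XS (lines 30, 31 and 32). The remaining 2 lists, Serum/LIF samples titled S (lines 35 and 37), lie outside the rule and serve only for comparison. Their 10 and 22 domains of at most 13 kb are therefore not counted among the short domains examined. The 2i medium was free of serum and held PD0325901, a Mek inhibitor, at 1 µM and CHIR99021, a Gsk3 inhibitor, at 3 µM; Serum/LIF cells grew on irradiated feeder fibroblasts. LIF was present in all cultures. Numbers in the sample titles were read as cell lines; the meaning of XS and S is not given, and lines 30, 31 and 32 occur only as XS, so line and culture cannot be told apart for them. The labels leave it unsaid if samples of a group were separate cultures; the p-values reflect only how these samples vary, and that variation may be technical. The control behind each list is not given and may be shared, and depth is unknown because no list carries read counts. XS line 32 stood apart from the other 7 lists in the lengths of its short domains, and main values that rest on it are given with and without it.

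H2A.X is a variant of histone H2A that is built into nucleosomes throughout the genome. It is best known as the substrate of the kinases ATM, ATR and DNA-PK, which phosphorylate it around DNA double-strand breaks and so mark the chromatin for repair. Inhibition of Mek and Gsk3 holds embryonic stem cells in a more uniform state than serum does, with lower DNA methylation. The decreased domains are, by the names of the lists, stretches with less H2A.X than the control.

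The short domains fell into 3 kinds. Most were single bins or small blocks that lay alone between stretches covered by no list. Of these 281 domains 233 were also short in a list of another culture and 28 only in other lists of their own culture. The other 20 were short in no other of the 8 lists. A domain so enclosed can only meet short domains, so being short elsewhere means being covered there at all. On average 54.5% of all short domains of a list shared a bin with a domain of another list. For longer domains, which span more bins, it was 73.2%. A second kind was seen in XS line 32: 27 domains, 24 of them of 9 to 10 bins, that were not enclosed in this way and met a longer domain in at least 1 other list. A domain that is not enclosed has a covered bin beside it, so such a meeting is largely set by the choice. Another domain of 9 to 10 bins in XS line 32 was of the first kind. A few abutted longer domains directly. These kinds were recognised after the values were seen and are described without a test.

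Short domains were a minor part of every list. The 2i/LIF lists held 50, 51 and 40 of them in lines 34, 35 and 37, which was 1.92%, 1.6% and 1.27% of their domains. After the move there were 50 in line 34 and 42 in line 37, or 2.68% and 1.43%. The XS lists held 26, 25 and 39 in lines 30, 31 and 32, or 1.03%, 1.13% and 0.888%. Every XS list thus had fewer than every 2i/LIF list and every list after the move. Together the short domains of a list added up to 59.8 kb in XS line 31 and 351 kb in XS line 32, and never more than 0.0477% of the covered length.

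XS lists held 30 ± 7.81 short domains (SD, n = 3) and 2i/LIF lists 47 ± 6.08 (SD, n = 3), a difference of -17. The two-sided exact permutation test gave p = 0.1, which is as low as 3 lists against 3 can reach. After the move the mean was 46 ± 5.66 (SD, n = 2), a difference of -1 from 2i/LIF (exact permutation p = 1) that ran from -5 to 3 when 1 list was left out. XS less after the move was -16 (exact permutation p = 0.2, the smallest possible there). As a share of all domains of a list, XS lists had 1.01% ± 0.121 (SD, n = 3), 2i/LIF lists 1.6% ± 0.326 (SD, n = 3) and lists after the move 2.05% ± 0.881 (SD, n = 2). In percentage points, XS less 2i/LIF was -0.584 (exact permutation p = 0.1) and XS less after the move was -1.04 (exact permutation p = 0.2). The share after the move exceeded that of 2i/LIF by 0.455 percentage points (exact permutation p = 0.6). That difference was -0.169 without line 34 after the move, 1.08 without line 37 after the move and 0.291 without 2i/LIF line 37. The share of XS less after the move was -0.415 without line 34 after the move and -1.66 without line 37 after the move. After Benjamini-Hochberg adjustment of these exact tests over 9 comparisons, distances included, no p was below 0.36. With a limit of 26 kb XS less 2i/LIF turned to 115, and the turn rested on XS line 32. Up to 26 kb it held 444 domains, XS lines 30 and 31 held 38 and 36, and the 2i/LIF lists held 60, 63 and 51. Without XS line 32 the difference at 26 kb was -21 from 2i/LIF (exact permutation p = 0.2) and -33 from the lists after the move, compared with 103 with it.

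Single bins were the commonest length. Of the 323 short domains 199 (61.6%) were 1 bin long, 58 were of 2 to 5 bins and 66 of 6 to 10 bins. In 2i/LIF, 36, 36 and 28 short domains were single bins in lines 34, 35 and 37, after the move 26 and 27 in lines 34 and 37, and in XS 16, 19 and 11 in lines 30, 31 and 32. Each XS list thus held fewer single bins than any 2i/LIF list or list after the move. At 2 bins the number over all 8 lists dropped to 29, at 3 bins to 12, and from 4 to 8 bins it stayed between 7 and 10.

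XS line 32 had a different profile of lengths. It held 10 domains of 9 bins and 15 of 10 bins, whereas the other 7 lists together held 10 of 9 bins and 7 of 10 bins. At the limit the series of lengths in this list simply went on, with 15 domains of 13 kb and 17 of 14.3 kb. In the other lists 0 to 2 domains were exactly 13 kb and 0 to 2 exactly 14.3 kb. The median domain of XS line 32 was 79.3 kb long, compared with 176 to 394 kb in the other 7 lists.

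**Figure D1:**
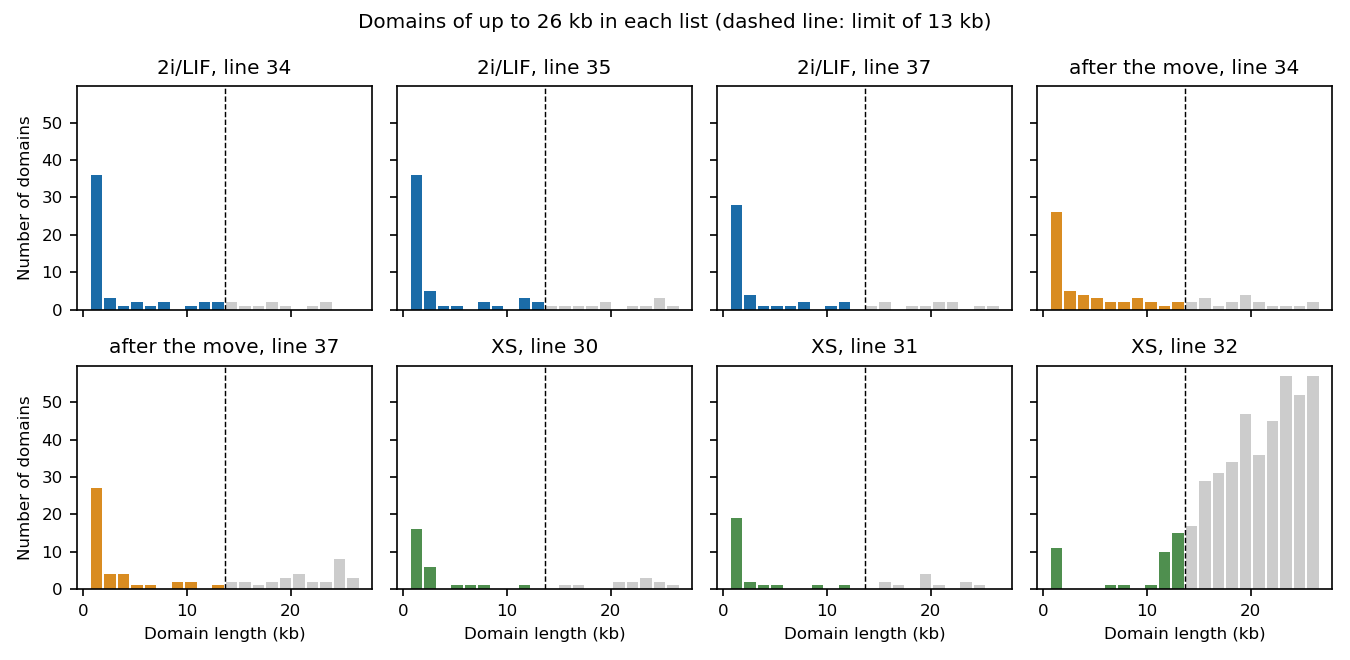
Number of domains (vertical axis) by length in kb (horizontal axis) for domains of up to 26 kb, 1 panel per list; coloured bars are short domains, grey bars lie beyond the limit of 13 kb. Single bins of 1.3 kb are the commonest short length in 7 lists, with 16 to 36 domains, while in XS line 32 15 domains of 10 bins exceed its 11 single bins.

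The authors' score was lower per bin in short domains than in longer ones. The score never exceeds the number of bins, so a score per bin lies between 0 and 1. It comes from the same comparison with the control that made the lists and is therefore given without a test. The median score per bin of short domains was 0.578, 0.536 and 0.529 in 2i/LIF lines 34, 35 and 37, 0.6 and 0.653 after the move in lines 34 and 37, and 0.505, 0.47 and 0.758 in XS lines 30, 31 and 32. Longer domains of the same lists had 0.872, 0.724, 0.794, 0.865, 0.875, 0.691, 0.639 and 0.79, in the same order. The short median was lower in each of the 8 lists, and XS line 32 had the smallest gap.

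Single bins scored from 0.4 to 1. Their median per list ran from 0.468 in XS line 31 to 0.664 in line 37 after the move, and a single bin scored 1 in 2i/LIF line 34 and in XS line 31. Blocks of 6 to 10 bins that were boxed in, as defined below, had a median of 0.345 per bin and reached down to 0.118. By contrast, the 27 blocks of 6 to 10 bins in XS line 32 had a median of 0.856. At 10 bins the median per list was 0.284, 0.218, 0.668 and 0.429 in 2i/LIF lines 34 and 35 and in lines 34 and 37 after the move, and 0.86 in XS line 32. At 11 bins, just outside the limit, it was 0.619, 0.632, 0.292, 0.417 and 0.847 in the same lists.

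A second value deposited with each domain, of undefined meaning and used only for its sign, was above 0 in 121 of the 323 short domains (37.5%). Among longer domains of the 8 lists 1.61% had such a value. The share among short domains was 34%, 51% and 30% in 2i/LIF lines 34, 35 and 37, 70% and 35.7% after the move, and 26.9%, 32% and 2.56% in XS lines 30, 31 and 32. Longer domains after the move in line 34 also had the highest share of their kind, 15.3%, against at most 1.33% in the other 7 lists. In the S lists of lines 35 and 37 the value was above 0 in 100% of short and 100% of longer domains. This sign comes from the same comparison as the lists and was not tested either.

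Isolation from other domains of the same list held only in part. The median uncovered distance to the nearest domain of the same list was 135, 71.5 and 249 kb in 2i/LIF lines 34, 35 and 37, 107 and 94.9 kb after the move in lines 34 and 37, and 196, 127 and 263 kb in XS lines 30, 31 and 32. For longer domains it was 89.7, 72.8, 105, 96.2, 59.8, 135, 100 and 65 kb in the same order. The short median was thus the larger in 7 lists and slightly the smaller in 2i/LIF line 35. A nearest domain within 13 kb was found for 12 short domains, 11 of which abutted it, and a distance of more than 1 Mb for 25. For 92 the nearest domain was itself short.

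The median distance per list was 152 ± 89.9 kb in 2i/LIF (SD, n = 3), 101 ± 8.73 kb after the move (SD, n = 2) and 195 ± 67.6 kb in XS (SD, n = 3). The difference after the move was -50.8 kb (exact permutation p = 0.6) and that of XS from 2i/LIF 43.3 kb (exact permutation p = 0.5). XS exceeded the lists after the move by 94.1 kb (exact permutation p = 0.2, the smallest possible), and by 60.5 kb without XS line 32. The difference after the move from 2i/LIF was -2.27 kb without 2i/LIF line 37 and -91 kb without 2i/LIF line 35. The XS difference from 2i/LIF was 3.14 kb without 2i/LIF line 35, 9.64 kb without XS line 32, 77.2 kb without XS line 31 and 91.9 kb without 2i/LIF line 37.

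**Figure D2:**
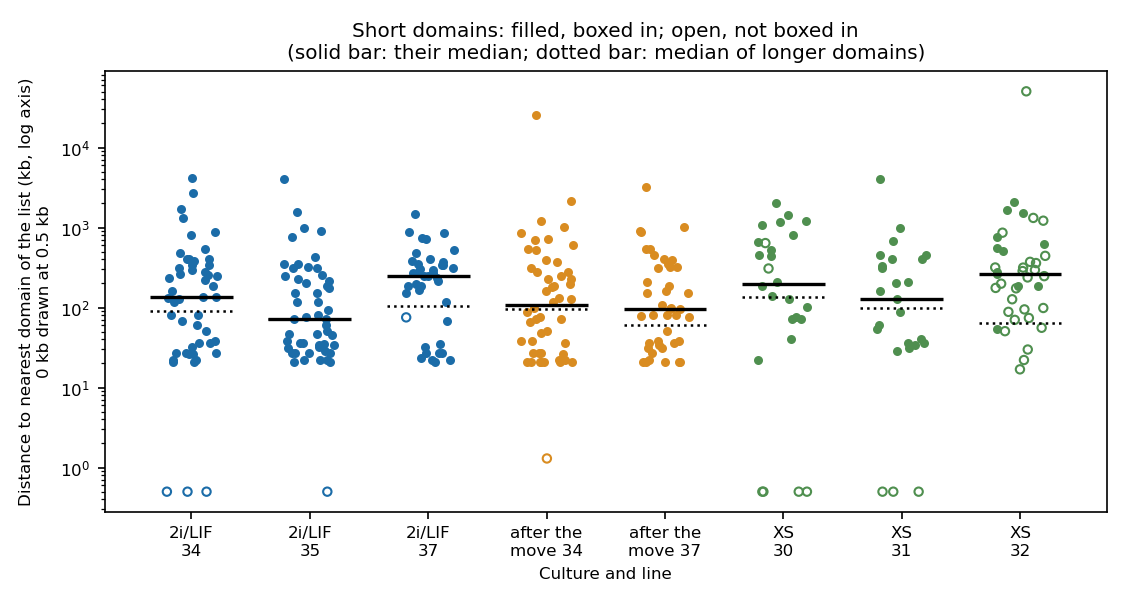
Distance in kb on a log axis from each short domain to the nearest domain of the same list (points; 0 kb drawn at 0.5 kb), by culture and line; filled points are boxed in, open points are not, the solid bar is the median of short domains and the dotted bar that of longer domains. In XS line 32 the medians are 263 and 65 kb, and 11 open points lie at 0 kb in 2i/LIF lines 34 and 35 and XS lines 30 and 31.

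What set most short domains apart from longer ones was their surroundings across lists. A domain is called boxed in here if the bin on each side of it lies in none of the 10 lists. This held for 281 of the 323 short domains (87%), compared with 677 of 22552 longer domains (3.00%). By list it was 47 of 50, 50 of 51 and 39 of 40 in 2i/LIF lines 34, 35 and 37, 49 of 50 and 42 of 42 after the move, and 20 of 26, 22 of 25 and 12 of 39 in XS lines 30, 31 and 32. Single bins were boxed in almost without exception, 196 of 199. In XS line 32, 11 of 11 single bins but only 1 of 27 blocks of 6 to 10 bins were boxed in. In the other 7 lists 35 of 39 such blocks were. The contrast was smaller in the S lists of lines 35 and 37. There 70% and 68.2% of short domains were boxed in, and 43.8% and 57.4% of longer ones.

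The stretches in no list beside boxed-in short domains were long compared with the domains themselves. Their median length was 81.9 kb, compared with 71.5 kb over all 1664 stretches in no list. None was under 20.8 kb, a length that 7.21% of the 1664 did not reach. On the narrower side of a boxed-in domain the median was 42.9 kb and on the wider side 151 kb. All bins in no list, beside short domains or not, made up 8.36% of the 2412.2 Mb between the first and the last covered bin of each chromosome. At 10 short domains the domain held the first or last bin of that span, and bins beyond the span counted as in no list. The number of boxed-in domains depends on which lists define the stretches, and a place so enclosed leaves no room for a longer domain in any list.

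Joined over all 10 lists, the domains formed 1683 unbroken runs, of which 91 were at most 13 kb long. The 2i/LIF lists of lines 34, 35 and 37 held 47, 50 and 39 of the 91 islands while covering 34.6%, 78.2% and 44.8% of the span. Lines 34 and 37 after the move held 49 and 42 islands at 42.4% and 41.5% of the span. XS lines 30, 31 and 32 held 20, 22 and 12 at 36.3%, 72.8% and 30.5%. XS line 31, the second widest list, thus held 24.2% of the islands but covered 79.4% of the length of the larger runs. 2i/LIF line 34 held 51.6% of the islands and covered 37.7% of that length. A count of islands and a length of larger runs are not like for like. By count, 2i/LIF line 34 touched 1005 and XS line 31 touched 1123 of the 1592 larger runs. Every XS list held fewer islands than each of the other 5 lists. By the number of lists, 20 islands were in 1 of the 8 lists, 3 in all 8, and 6 only in an S list.

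Where short domains recurred, they mostly met short domains. For the 281 boxed-in ones no other meeting was possible, which also limits the shares that could meet a longer domain. On average 54.5% of the short domains of a list and 73.2% of its longer domains shared a bin with a domain of another list. Because 1 shared bin counts, a domain of more bins has more chances to be touched, and these shares are not like for like. Counting ordered pairs of lists, a short domain shared a bin with a short domain of another of the 8 lists 1014 times, and in 1002 of these (98.8%) both ends were identical. The agreement of ends is largely fixed by the empty bins on both sides: 826 of the meetings were those of single bins, all with identical ends. Of the 188 meetings of short domains of more than 1 bin, 176 had identical ends. On average over the 7 other lists, 46.3%, 45.4% and 53.6% of the short domains of 2i/LIF lines 34, 35 and 37 met a short domain. After the move it was 40.6% and 45.2% for lines 34 and 37, and for XS lines 30, 31 and 32 it was 56%, 56% and 23.8%. A longer domain was met by 2.29%, 0% and 0.357% in 2i/LIF, 1.43% and 0% after the move, and 9.89%, 8% and 48% in XS. In 25 of the 56 ordered pairs no short domain met a longer one. These overlaps are given without a test because the lists may share a control.

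Wide lists did not always touch more of the short domains. Of the 50 short domains of 2i/LIF line 34, 40 were touched in 2i/LIF line 35, which covers 78.2% of the span, and 31 in 2i/LIF line 37, which covers 44.8%. In XS line 31, which covers 72.8%, 17 of the same 50 were touched, and 16 of those by a short domain. In XS line 30, which covers 36.3%, the count was 16, and in XS line 32, which covers 30.5%, it was 10. Seen from the other side, 16 of the 25 short domains of XS line 31 were met by a short domain in 2i/LIF line 34, 19 in line 35 and 18 in line 37. In XS line 30 or XS line 31, or both, 24 of the 50 short domains of 2i/LIF line 34 were short, 27 of the 51 of line 35 and 25 of the 40 of line 37. In at least 1 of the 2i/LIF lists, 19 of the 26 short domains of XS line 30 were short and 20 of the 25 of XS line 31. As a share of each list, the 19 places common to 2i/LIF line 35 and XS line 31 were 37.3% of the former's short domains and 76% of the latter's.

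**Figure D3:**
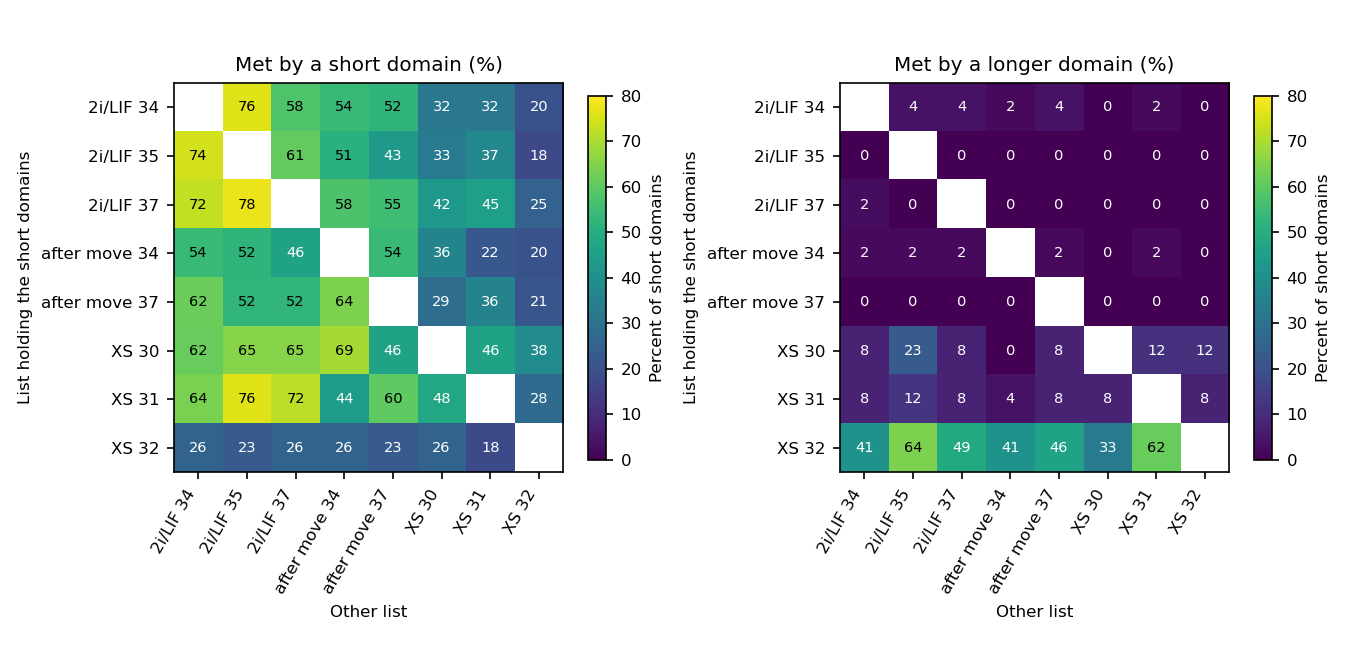
Percent of the short domains of a list (rows) that share a bin with a short domain (left) or a longer domain (right) of another list (columns), for the 8 lists. Among the 2i/LIF lists 58% to 77.5% were met by a short domain, and only the row of XS line 32 shows much of longer domains, 33.3% to 64.1%.

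Short domains of 2i/LIF lists and of lists after the move coincided in part. Lines 34 and 37 after the move cover 42.4% and 41.5% of the span. They covered 67.5% to 81.4% of the bins in longer domains of 2i/LIF lines 34 and 37. Of the bins in short domains of the same 2i/LIF lists they covered 34.9% to 48.3%. Of the 50 short domains of line 34 in 2i/LIF, 27 were again short after the move, 1 touched a longer domain and 22 were uncovered. Of the 50 in line 34 after the move, 27 had been short in 2i/LIF and 22 uncovered. In line 37, 22 of 40 were again short after the move and 18 uncovered, and of its 42 after the move 22 had been short in 2i/LIF and 20 uncovered. The other line gave much the same counts: 26 of the 50 short domains of line 34 in 2i/LIF were short in line 37 after the move, and 23 of the 40 of line 37 in 2i/LIF were short in line 34 after the move. In no such pair of lists did more than 2 short domains of 2i/LIF touch a longer domain after the move.

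The surroundings of boxed-in domains stayed sparsely covered beyond the bins that define them. At the centre of boxed-in short domains a mean of 50.9% of the other 7 lists covered the bin. At 1.3 kb to the left and right it was 4.57% and 8.95%, and at 13 kb it was 0%; the drop beside the domain restates how boxed-in domains were picked. At 97.5 kb it had risen to 12.9% and 8.24%, and at 195 kb to 17.7% and 13.5%, still below the coverage of every one of the 8 lists over the span. The 25 domains of 9 to 10 bins in XS line 32 showed 70.3% at the centre, and 60.6% at 13 kb on either side. Places that recur enter this mean once for each list that holds them.

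**Figure D4:**
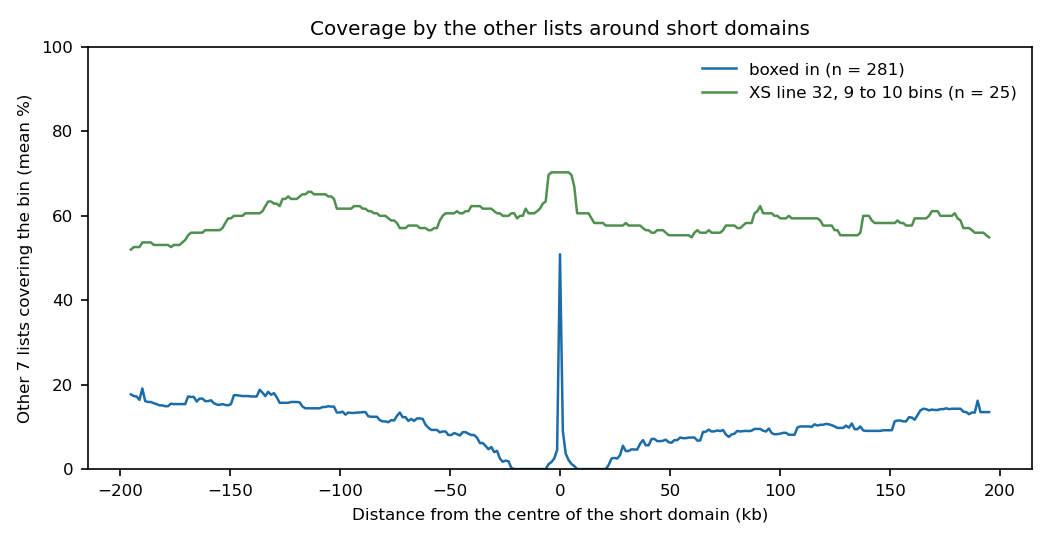
Mean percent of the other 7 lists that cover a bin (vertical axis) by distance in kb from the centre of a short domain (horizontal axis), for 281 boxed-in short domains and the 25 domains of 9 to 10 bins in XS line 32. The boxed-in domains show a spike of 50.9% with 0% at 13 kb on either side, the XS line 32 domains a broad level near 60% with 70.3% at the centre.

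The 27 short domains of XS line 32 that were not boxed in met longer domains in few to all of the other lists. Each touched a longer domain in at least 1 other list, 11 of them in all 7. None abutted a domain of its own list, so a bin beside each of them lay in another list. Meeting a domain there thus largely follows from how they were picked. On average 4.85 of the 7 other lists held a longer domain there. Those lists each cover 34.6% to 78.2% of the span and 31.3% to 98.6% of the bins in longer domains of XS line 32. On chromosome 1 at 7378801 and at 178670701 only 1 list held a longer domain and 6 held none. Examples with every bin inside a longer domain in all 7 were on chromosome 15 from 95617601 to 95630600, on chromosome 15 from 75713301 to 75726300, on chromosome 7 from 16890901 to 16903900, on chromosome 2 from 70307901 to 70319600 and on chromosome 19 from 24736401 to 24749400. Their scores per bin in XS line 32 were 0.891, 0.888, 0.876, 0.871 and 0.855.

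On chromosome 15 at 95617601 the covering domain was 122 kb long in 2i/LIF line 34, 1175 kb in line 35 and 406 kb in line 37. After the move it was 585 and 614 kb in lines 34 and 37, and in XS lines 30 and 31 it was 147 and 1209 kb. On chromosome 2 at 70307901 the covering domains were 634, 682 and 629 kb in 2i/LIF, 676 and 614 kb after the move, and 320 and 502 kb in XS lines 30 and 31. That the domain of XS line 32 was the shortest of the 8 at both places follows from how these examples were picked. Outside XS line 32 only 15 short domains were not boxed in, and all 15 had a deposited value above 0.

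Of these 15, 11 abutted another domain of their own list with no bin between them: 3 in 2i/LIF line 34, 1 in 2i/LIF line 35, 4 in XS line 30 and 3 in XS line 31. Abutting was seen for 0.146% of longer domains. In all 11 the value of undefined meaning was above 0 while that of the abutting neighbour, or of both neighbours, was not. Their median score per bin was 0.92, above the median of boxed-in short domains (0.553). On chromosome 9 a domain from 115059101 to 115061700 in XS line 30 scored 1 per bin and had a neighbour at 0 kb on both sides. In XS line 31 the same place was called from 115056501 to 115061700, again between 2 neighbours, with a score of 0.92 per bin. A further pair lay on chromosome 5, from 80241201 to 80243800 in XS line 30 and from 80232101 to 80243800 in XS line 31, at 0.858 and 0.479 per bin.

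One place of an abutting domain was also short in other cultures and lines, but only the domain of XS line 30 abutted its neighbours there. Line 34 after the move and XS line 32 had their nearest domain at 1.3 and 55.9 kb. On chromosome 2 XS line 30 held a domain from 27346801 to 27358500, line 34 after the move one from 27349401 to 27358500 and XS line 32 one from 27350701 to 27358500. All 3 ended at the same bin, had a value above 0 and scored 0.975, 0.97 and 1 per bin. The other 5 of the 8 lists had a longer domain at this place, and both S lists a domain. Those of line 37 after the move and XS line 31 covered 100% of the domains of line 34 after the move and XS line 32. The longer domains of each 2i/LIF list only reached its edge, with 14.3% of the domain of line 34 after the move and 0% of that of XS line 32. It was 1 of only 4 recurrent places with unequal ends.

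Merged over lists, the 323 short domains formed 122 places. Of these 53 were short in 1 list, 22 in 2, 11 in 3, 13 in 4, 8 in 5, 7 in 6, 5 in 7 and 3 in all 8. The 69 places short in more than 1 list held 270 of the short domains (83.6%), 65 of them had identical ends in every list, 41 were single bins, and at 3 a longer domain was present in another list. Of the 53 places of 1 list, 26 belonged to XS line 32, and each of these 26 met a longer domain elsewhere. Of the other 27, 20 were uncovered in the remaining 7 lists.

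The 3 places short in all 8 lists were single bins within 1 Mb of chromosome 12, at 19253001 to 19254300, 19442801 to 19444100 and 20202001 to 20203300. At 19442801 the score was 0.618, 0.548 and 0.553 in 2i/LIF lines 34, 35 and 37, 0.636 and 0.71 after the move in lines 34 and 37, and 0.443, 0.499 and 0.579 in XS lines 30, 31 and 32. At 20202001 it was 0.577, 0.521 and 0.575 in 2i/LIF, 0.567 and 0.695 after the move, and 0.436, 0.511 and 0.567 in XS. At 19253001 it was 0.483, 0.499 and 0.485 in 2i/LIF, 0.612 and 0.627 after the move, and 0.508, 0.53 and 0.669 in XS. Line 37 after the move had the highest score at the first 2 of these and XS line 32 at the last. Both lists after the move lay above all 2i/LIF lists at 19442801 and 19253001, while at 20202001 the groups overlapped.

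The stretches in no list around these bins measured 127.4 and 162.5 kb at 19442801, 131.3 and 26 kb at 20202001, and 37.7 and 40.3 kb at 19253001. Of the 5 places short in 7 lists, those with the highest mean score were single bins on chromosome 7 from 11464701 to 11466000, missing in line 34 after the move, and on chromosome 9 from 89052601 to 89053900, missing in XS line 32. Their scores ran from 0.473 in XS line 30 to 0.655 in line 37 after the move on chromosome 7, and from 0.417 in 2i/LIF line 37 and XS line 31 to 0.721 in line 37 after the move on chromosome 9. No S list touched the 3 places of chromosome 12 or that of chromosome 9, and 1 S list touched that of chromosome 7.

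Few places were short in every list of 1 culture and in no other of the 8 lists. Places short in lists of only 1 culture, but not always in all of them, were more common. There were 19 in 2i/LIF, 17 after the move and 33 in XS, of which 26 were found in XS line 32 alone. At least 1 list of each of the 3 cultures held a short domain at 27 places. Every 2i/LIF list held one at 26 places, of which 2 were in no other of the 8 lists: chromosome 1 from 84982301 to 84983600 and chromosome 13 from 50364601 to 50376300, with mean scores per bin of 0.504 and 0.737. Both lists after the move held one at 27 places, 7 of them in no other of the 8 lists. These included chromosome 7 from 32622201 to 32626100 (3.9 kb) at a mean score per bin of 0.733 and chromosome 13 from 66337701 to 66340300 (2.6 kb) at 0.753. All 3 XS lists held one at 7 places, none of which was restricted to XS. With 2 lists after the move the condition of every list is met more easily than with 3 lists of 2i/LIF or XS.

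The short domains farthest from any other domain of their list were of different kinds. In XS line 32 the domain on chromosome 13 from 112278401 to 112290100 lay 50463 kb from the next one. At the same place line 34 after the move had a covering domain of 1074 kb and 2i/LIF line 35 one of 979 kb, and XS line 30 had none. In line 34 after the move the domain on chromosome 6 from 3000401 to 3010800, at the start of the span, lay 25779 kb from the next and was in none of the other 9 lists. A single bin on chromosome 14 from 4517501 to 4518800 was 4209 kb, 4074 kb and 4072 kb from the nearest domain in 2i/LIF line 34, XS line 31 and 2i/LIF line 35.

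Of the short domains that touched no domain of any other list, the highest score per bin was 0.681, in 2i/LIF line 34 on chromosome 12 from 20229301 to 20239700. It lay 26 kb from the recurrent bin at 20202001. The next were the domain at the start of chromosome 6 (0.656) and single bins of line 34 after the move on chromosome 9 from 109220801 to 109222100 (0.603) and chromosome 7 from 7389201 to 7390500 (0.598). A single bin of line 37 after the move, on chromosome 7 from 32943301 to 32944600, followed with 0.551. The highest score per bin of any short domain in a list was 1 in 2i/LIF line 34 (chromosome 4, 118220701 to 118222000), 0.781 in 2i/LIF line 35 (chromosome 6, 29697201 to 29706300) and 0.942 in 2i/LIF line 37 (chromosome 17, 39980201 to 39986700). In line 37 after the move it was 0.959, on chromosome 14 from 53656201 to 53665300, and in XS line 31 it was 1, on chromosome 9 from 13422501 to 13423800. The remaining 3 lists had their highest at the places on chromosomes 2 and 9 described above. None of the 8 highest was a boxed-in domain except that on chromosome 14.

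Chromosomes 7 and 12 carried 122 of the 323 short domains (37.8%), while they make up 11.1% of the span and carry 11.6% of longer domains. Chromosome 7 held 63 at 23 places and chromosome 12 held 59 at 16 places. Chromosomes 9, 13 and 17 held 27 each. Chromosome 11 held none in any list, although 1360 longer domains lay on it, and chromosomes 16 and 19 held 1 each. The share of the span in no list was 17.1% on chromosome 7, 11.4% on chromosome 12 and 6.63% on chromosome 11. It was also high on chromosomes 8 (13.5%) and 6 (11.4%), which held 7 and 6 short domains.

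**Figure D5:**
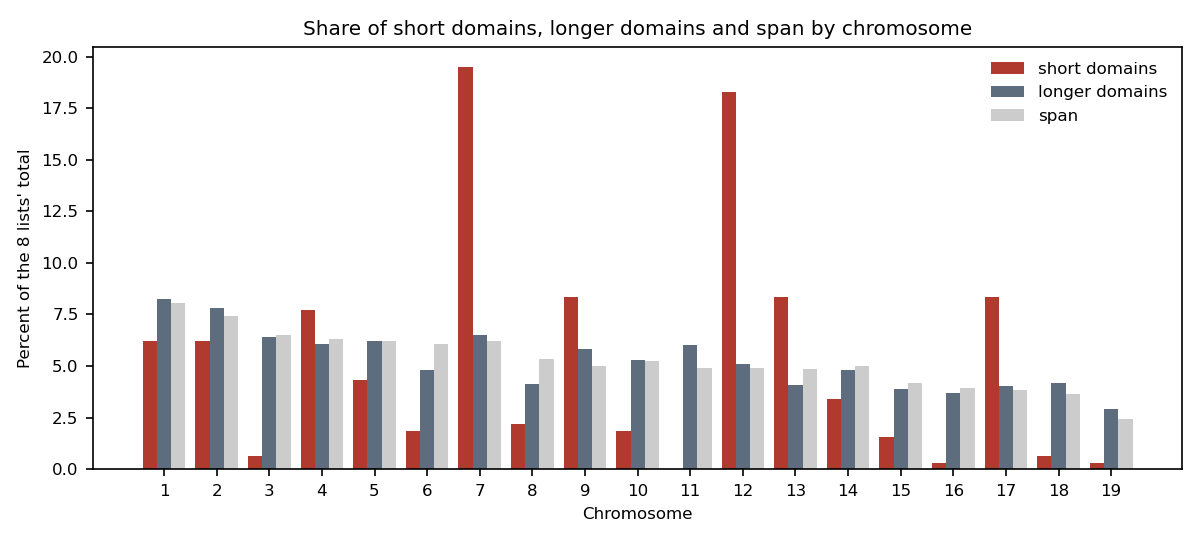
Percent of all short domains, of all longer domains and of the span (bars, vertical axis from 0) on each of the 19 autosomes (horizontal axis), over the 8 lists together. Chromosomes 7 and 12 hold 19.5% and 18.3% of short domains but 6.52% and 5.12% of longer ones, and chromosome 11 holds 0% of short domains.

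On chromosome 12 the short domains were packed between 18 and 24 Mb, a window chosen after its values were seen. There 11 places held 51 short domains, and 64.1% of the bins lay in no list. The first place began at 18612101 and the last ended at 23255700. Of the 11 places, 2i/LIF line 34 held a short domain at all 11, lines 35 and 37 at 6 and 5, lines 34 and 37 after the move at 6 and 9, and XS lines 30, 31 and 32 at 4, 5 and 5. Coverage of the window was 9.53%, 16.8% and 5.85% in 2i/LIF, 33.2% and 28.4% after the move, and 5.03%, 5.94% and 0.303% in XS. Chromosome 13 between 65 and 67 Mb, also chosen by its values, held 8 places with 21 short domains, and 86.7% of its bins lay in no list. Line 37 after the move held 7 of these 8 places, and XS lines 30 and 32 held none.

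The S lists touched 14 of the 122 places. The S list of line 37, which covers 0.381% of the span, touched 7 of 50, 7 of 51 and 7 of 40 short domains of 2i/LIF lines 34, 35 and 37, and 6 of 50 and 7 of 42 after the move. In XS lines 30, 31 and 32 it touched 2 of 26, 3 of 25 and 3 of 39. The S list of line 35, which covers 0.0382%, touched 1 in each 2i/LIF list, 4 and 2 after the move, and 1, 0 and 1 in XS. The single bin on chromosome 4 from 146679001 to 146680300 was short in every 2i/LIF list and both lists after the move and was touched by both S lists, but it was in no XS list.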

How the data were processed

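H2A.X was measured by native ChIP-seq. Reads were aligned with Bowtie2 2.0.6 to mm9, per the submitters' processing notes; the caller with its settings, the controls and any pooling: not given in the sources used here. Per domain, the lists the authors deposited give a position, a state, a signed value (column 5) and a score (column 6). The authors' score was divided by the number of 1300 bp bins; of the signed value only the sign was used. The state label reads enriched although the lists are titled decreased; the direction follows the titles.

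Domains up to 13000 bp were taken as short. Overlap means 1 shared bin. The 9 comparisons between cultures used two-sided exact permutation tests over lists. The replicate block pairs lists of the same line, read from the titles (lines 34 and 37): of 50 short domains of line 34 in 2i/LIF, 27 recurred as short in its own later list and 26 in the later list of line 37. The code was tested on simulated lists.

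Regions were named by rule: the 5 places short in most lists, the 5 most distant short domains, the 5 highest scoring in no other list, the 5 inside longer domains of most lists, and the highest score per bin of each list. The kinds of short domain and the places beyond this rule were chosen after their values were seen, and the members with earlier results of these data known. No genes were assigned and no sequence is printed, since no genome or annotation of mm9 was used. Python 3.11.15, numpy 2.4.6, pandas 2.3.3 and matplotlib 3.10.9 were used.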

Additional observations from a re-analysis of the deposited data

How the results depend on the processing

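Of 205 alternative values for 14 results, 178 kept direction or size, 23 changed sign and 4 moved by more than the spread between lists; none of the exact permutation tests among them had a p under 0.05, and the lowest was 0.1, so no call could be gained or lost. Where nothing else is said, the cause was not tested. With a limit of 26 kb the number differed by 12 after the move from 2i/LIF, by 115 in XS from 2i/LIF and by 103 in XS from after the move, the XS shares by 2.44 and 1.36 percentage points, and the XS distance from 2i/LIF by -2.82 kb. With XS line 32 also left out, added after seeing the data, the XS numbers differed by -21 and -33, the shares by -0.406 and -1.49, and the distance from 2i/LIF by -2.28 kb. With the 50% of domains of higher score per bin the same 3 numbers were 0.333, 7.33 and 7, the XS shares 0.399 and 0.323, the distance after the move 808 kb and that of XS from after the move -332 kb. Under that setting 28.8% of short domains were touched in another list (54.5% otherwise), 7.81% met a short one (45.9%), 28.3% were boxed in (85.4%, a mean over lists), and the score per bin of short less that of longer domains was 0.0839 (-0.203). As shares of covered length the XS differences were 0.0074 and 0.00397 percentage points. With abutting domains joined, added after seeing the data, the number after the move differed from 2i/LIF by 0.333; with the line as a replicate block it was 1, and leaving out each list in turn gave -5 to 3. The share after the move less 2i/LIF ran from -0.169 to 1.08 on leaving out lists. With single bins only, also added, 62.1% met a short domain. Without XS line 32, 3.2% of short domains lay in a longer domain of another list, compared with 8.74%. The block gave 0.456 for the share and -91 kb for the distance after the move less 2i/LIF, with no other change of direction.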
